A study of Mus musculus with 6 samples.

Results

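Dlk1, the gene of a membrane protein related to the Notch ligands, was examined together with 9 other imprinted genes, Meg3, Rian, H19, Igf2, Igf2r, Grb10, Peg3, Plagl1 and Ndn, in sorted mouse leukaemia cells with and without induction of the kinase NIK. The 10 genes are rows with these symbols among 24015 gene symbols in the count data. The set was chosen from earlier results of the same libraries, in which Dlk1 had one of the largest rises, and the other 9 genes were added because they are imprinted. The difference in Dlk1 is therefore a description and is given without a p-value. The question was whether Dlk1 moved alone or with other imprinted genes.

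The LSPCT group held 3 libraries of leukaemia stem and progenitor cells from mice given tamoxifen, and the LSPC group held 3 libraries of the same cells from untreated mice. Both groups came from murine acute myeloid leukaemia driven by the MLL-AF9 fusion and raised from lineage-negative, cKit-positive bone marrow progenitors. All of these progenitors carried both alleles of the cross, Rosa-loxp-STOP-loxp-NIK and Rosa-CreERT2, so that tamoxifen lets Cre remove the stop in front of NIK. Tamoxifen was given to the LSPCT mice alone, so the drug, Cre activity and NIK cannot be told apart, and Rosa drives Cre broadly rather than in one cell type. The labels give neither the age or sex of the mice nor whether replicates were separate mice, and the spread that the p-values measure, that between these libraries, may be technical.

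Imprinted genes are expressed from the maternal or the paternal copy alone, as set by DNA methylation marks laid down in the germ line and kept by DNA methyltransferases. In the Dlk1-Dio3 locus of mouse chromosome 12, Dlk1, Rtl1 and Dio3 are transcribed from the paternal copy and the long noncoding RNAs Meg3, Rian and Mirg from the maternal copy. In blood-forming tissue, imprinted genes such as H19, Igf2 and Dlk1 are known from fetal liver and from long-term stem cells, where they have been linked to growth and quiescence. Counts of reads per gene do not tell the parental copies apart, so nothing here measures imprinting itself.

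The sequences just before the start of the 3 Dlk1-Dio3 genes with enough reads to test are shown because this locus holds Dlk1. They are the 250 bases upstream, on the plus strand of GRCm38.p6, from RefSeq, with each CG dinucleotide, the site of DNA methylation in mammals, in capitals.
Dlk1, chr12:109452573-109452822: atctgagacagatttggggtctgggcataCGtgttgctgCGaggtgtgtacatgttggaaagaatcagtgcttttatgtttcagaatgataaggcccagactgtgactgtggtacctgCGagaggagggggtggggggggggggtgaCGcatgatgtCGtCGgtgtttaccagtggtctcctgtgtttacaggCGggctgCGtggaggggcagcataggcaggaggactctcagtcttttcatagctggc
Meg3, chr12:109540746-109540995: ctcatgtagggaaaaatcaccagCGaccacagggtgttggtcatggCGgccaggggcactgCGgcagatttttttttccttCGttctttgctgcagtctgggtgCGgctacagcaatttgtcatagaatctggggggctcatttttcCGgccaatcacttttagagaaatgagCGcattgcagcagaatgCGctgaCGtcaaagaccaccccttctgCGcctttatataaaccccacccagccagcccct
Rian, chr12:109603695-109603944: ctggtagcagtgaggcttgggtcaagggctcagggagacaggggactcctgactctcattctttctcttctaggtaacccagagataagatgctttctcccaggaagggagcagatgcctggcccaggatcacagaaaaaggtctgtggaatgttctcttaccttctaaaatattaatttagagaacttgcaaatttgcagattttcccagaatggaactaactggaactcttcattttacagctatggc
The Dlk1 window held 8 CG dinucleotides and the Meg3 window 10, against a median of 6 over 32851 windows of the same length upstream of mouse genes. The Rian window held none. Meg3 has 2 starts in RefSeq, of which the first listed is shown; the window of the other held no CG. The NF-kB-type motif GGGNNNNNCC, read on both strands, occurred in 45.8% of all windows and in none of these 3, which says only that these letters are not in these windows. RefSeq windows were found for 9 of the 10 genes. No methylation was measured.

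Depth was 19999071 to 22454753 counts in LSPCT libraries and 20410001 to 26773176 counts in LSPC libraries. A count of 0 allows up to 3 counts, or 0.111 to 0.150 CPM, for counting error only. CPM is the read count scaled to a common library size with TMM factors. Map3k14, the gene of NIK, stood at 129.9 to 190.6 CPM in LSPCT libraries, against 24.2 to 28.8 CPM in LSPC libraries, in the direction of the labels. Of 8 leukaemia stem and progenitor markers, all present in every library, none rose and 2 fell, Flt3 (log2 -1.20, edgeR adjusted p = 0.00153) and Fcgr3 (log2 -0.49, edgeR adjusted p = 0.00518). Among all genes tested, 8.96% rose and 8.24% fell. LSPCT replicate 1 stood apart in a list of 8 macrophage markers, all of which were tested and of which 7 rose. Their summed level was 524.3 CPM in that library, 179.9 and 222.0 CPM in LSPCT replicates 2 and 3, and 70.6 to 102.9 CPM in LSPC libraries. Emr1 was the largest part of each sum, at 205.5, 141.9 and 147.5 CPM in LSPCT replicates 1 to 3 and 69.6 to 92.3 CPM in LSPC libraries. It had the smallest rise of those that rose, so the sums understate the others. C1qa, C1qb, C1qc, Mrc1, Fcgr1 and Cd5l rose by 4.17 to 5.18 on the log2 scale (edgeR adjusted p 0.0138 to 0.0286). Each was higher in every LSPCT library than in every LSPC library. Marco did not pass (log2 -0.01, edgeR adjusted p = 0.996). Of 6 T lineage markers only Lck rose, and their sums were 28.6 to 79.5 CPM in LSPCT libraries, highest in replicate 1, and 18.2 to 22.0 CPM in LSPC libraries. Only 3 of 7 endothelial, 3 of 8 B lineage, 1 of 6 erythroid and 2 of 5 megakaryocyte markers had enough reads to test. None of those tested passed. Pax5, Hba-a1 and Hbb-b1 were at 0, but the treatment of multi-mapping reads is not given, so a 0 need not mean absence. Of 9 stromal markers 8 were tested, of which 4 rose and none fell. Col1a1 rose by 1.75 on the log2 scale, Col1a2 by 1.80, Acta2 by 1.46 and Pdgfra by 3.28 (edgeR adjusted p 0.00139 to 0.0224). Pdgfra stood at no more than 0.70 CPM. Col1a1 stood at 13.5, 4.83 and 8.85 CPM in LSPCT replicates 1 to 3 and 2.19 to 3.18 CPM in LSPC libraries. Col1a2 stood at 12.8, 8.64 and 12.1 CPM in LSPCT and 3.18 to 3.26 CPM in LSPC. The sums of all 9 were 64.3 to 92.5 CPM in LSPCT libraries and 46.0 to 70.8 CPM in LSPC libraries. Pdgfrb, the largest part of each sum, did not pass (log2 0.10, edgeR adjusted p = 0.753), so the sums understate the markers that rose. It stood at 42.7 to 50.6 CPM in LSPCT libraries and 34.3 to 55.4 CPM in LSPC libraries. In such sorted bulk samples, fewer cells of a type and less RNA per cell cannot be told apart. Results that rest on LSPCT replicate 1 are also given without it.

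Dlk1 had 5048, 2454 and 4595 reads in LSPCT replicates 1 to 3, against 15, 19 and 16 reads in LSPC replicates 1 to 3. These were 252.3, 113.9 and 203.3 CPM in LSPCT libraries and 0.746, 0.805 and 0.594 CPM in LSPC libraries. The gene was thus close to silent in every untreated library and well expressed in every tamoxifen library, and the groups did not overlap. The lowest LSPCT library was 141-fold above the highest LSPC library. The mean was 189.9 ± 70.2 CPM in LSPCT and 0.715 ± 0.109 CPM in LSPC (SD, n = 3 each), a ratio of 266, and the fitted log2 fold change was 8.05 (SE 0.37). Only 12 of the 12729 genes tested had a larger one.

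Without LSPCT replicate 1, in which macrophage markers were highest, the log2 fold change of Dlk1 was 7.80, and over all 6 ways of leaving out a library it ranged from 7.80 to 8.31. Within the LSPCT group, replicate 1 was at 1.33 times the group's mean for Dlk1, replicate 2 at 0.600 times and replicate 3 at 1.07 times. The summed stromal markers followed the same order, at 1.17, 0.815 and 1.01 times their mean in LSPCT replicates 1, 2 and 3. The summed macrophage markers did so too, at 1.70, 0.583 and 0.719 times. Pdgfrb, which did not differ between groups, was the largest part of each stromal sum, and Emr1 was that of each macrophage sum. The macrophage sums of LSPCT replicates 2 and 3 were also above those of every LSPC library. The part of stromal cells or macrophages in the level of Dlk1 was not tested.

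**Figure D1:**
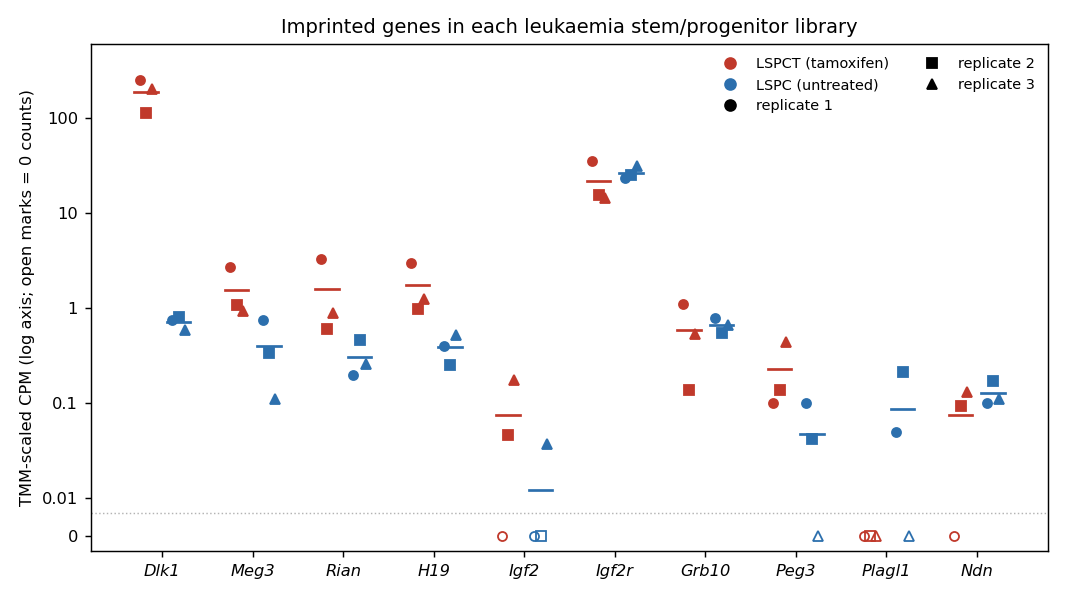
TMM-scaled CPM (log axis) of the 10 imprinted genes in each library, LSPCT in red and LSPC in blue, with a symbol for each replicate number and a bar at the group mean; open symbols under the dotted line mark libraries with 0 reads. Dlk1 lies between 113.9 and 252.3 CPM in LSPCT libraries and below 1 CPM in LSPC libraries, whereas the other 9 genes stay within the range from 0 to 34.9 CPM in every library.

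The noncoding neighbours of Dlk1 had more reads in LSPCT libraries too, at far lower levels, but did not pass the test. Meg3, a maternally expressed long noncoding RNA gene downstream of Dlk1, had 54, 23 and 21 reads in LSPCT replicates 1 to 3, against 15, 8 and 3 reads in LSPC replicates 1 to 3. Rian, a host of small nucleolar RNAs further along the locus, had 66, 13 and 20 reads in LSPCT and 4, 11 and 7 reads in LSPC. For both genes each LSPCT library was above each LSPC library, but LSPCT replicate 1 was the highest and the others lay close to the LSPC range. Means were 1.57 ± 0.984 CPM in LSPCT against 0.399 ± 0.321 CPM in LSPC for Meg3, and 1.60 ± 1.48 CPM in LSPCT against 0.308 ± 0.140 CPM in LSPC for Rian (SD, n = 3 each).

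Neither passed the threshold of 0.05 on the p-value adjusted over all genes tested. Meg3 differed by 1.997 on the log2 scale (SE 0.71, 95% interval 0.37 to 3.63, edgeR quasi-likelihood adjusted p = 0.0928), and Rian by 2.34 (SE 0.74, 95% interval 0.64 to 4.03, edgeR adjusted p = 0.0658). Both entered the test through the LSPCT libraries, since only 1 LSPC library of each reached the level the filter asks for, so a difference was favoured by the filter. Without LSPCT replicate 1 the log2 fold changes were 1.37 for Meg3 and 1.25 for Rian. Rian passed with DESeq2 (adjusted p = 0.0251) and without LSPCT replicate 2 (edgeR adjusted p = 0.0476).

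Reads of Dlk1 per read of its neighbours are given for each library as a description. For each read of Meg3 there were 93.5, 106.7 and 218.8 reads of Dlk1 in LSPCT replicates 1 to 3, against 1, 2.38 and 5.33 reads in LSPC replicates 1 to 3. For each read of Rian there were 76.5, 188.8 and 229.8 reads of Dlk1 in LSPCT and 3.75, 1.73 and 2.29 reads in LSPC. The ratios of the groups did not overlap for either gene. That follows from the choice of Dlk1 for its rise, so nothing about Meg3 or Rian is read from it. The LSPC ratios also rest on 3 to 15 reads of Meg3 and 4 to 11 reads of Rian.

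The rest of the locus was nearly silent. Rtl1, a retrotransposon-derived gene that lies antisense to maternal transcripts, had 4, 1 and 4 reads in LSPCT and 1, 0 and 0 reads in LSPC. Mirg, a host of microRNAs, had 6, 1 and 0 reads in LSPCT and 0, 0 and 3 reads in LSPC. Dio3, the thyroid hormone deiodinase gene at the far end, had 3 reads in LSPCT replicate 1 and none elsewhere. The count data list 58 microRNA and 7 snoRNA genes between Dlk1 and Dio3, and none of them had a read in any library. Whether such short RNAs were kept in library preparation is not given in the sources used here.

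Genes beside the imprinted stretch did not follow Dlk1. The 5 nearest tested genes on each side, in RefSeq order, differed by -0.72 to 0.59 on the log2 scale, and none passed. Wdr25, nearest on the Dlk1 side, stood at 5.40, 5.76 and 4.91 CPM in LSPCT and 4.18, 4.87 and 5.31 CPM in LSPC (log2 0.16, edgeR adjusted p = 0.666). Ppp2r5c, nearest on the Dio3 side and the gene of a phosphatase subunit, had a log2 fold change of -0.04 (edgeR adjusted p = 0.778). Begain, which adjoins Dlk1, had 1 to 8 reads per library and was not tested. Of the 8 flanking genes listed for the purpose, 7 were tested and none passed, where 17.2% of all genes tested did. Dync1h1, a dynein gene, alone passed without LSPCT replicate 1, at log2 0.30 (edgeR adjusted p = 0.0210).

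**Figure D2:**
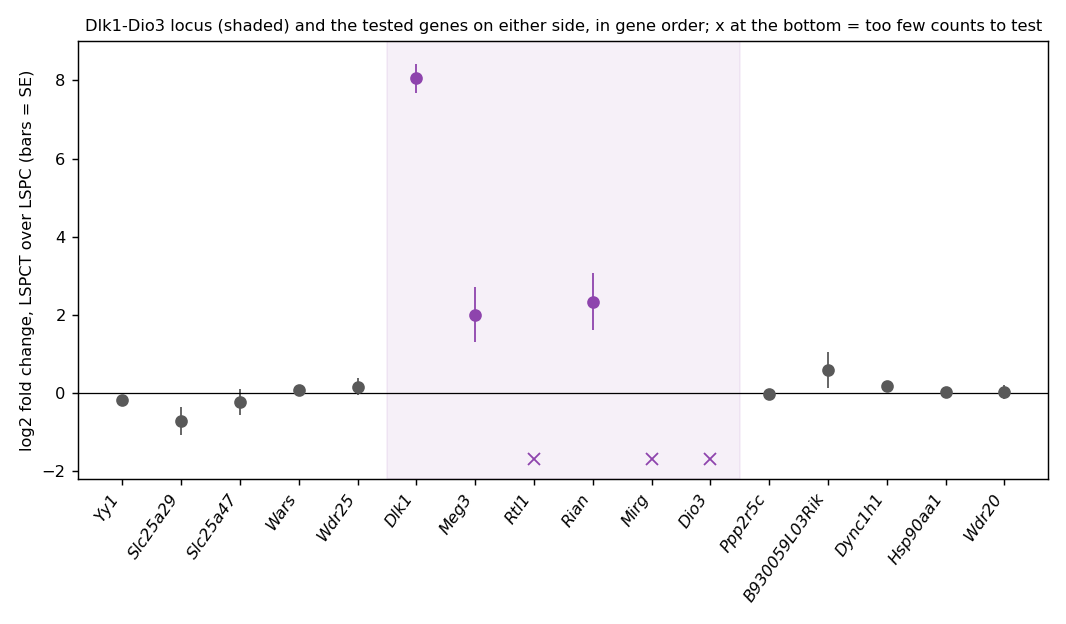
Fitted log2 fold change (LSPCT over LSPC, bars are SE) of genes in their order along mouse chromosome 12, with the Dlk1-Dio3 locus shaded and 5 tested genes on each side; crosses mark locus genes with too few reads to test. Dlk1 stands at 8.05, Meg3 and Rian at 1.997 and 2.34, and the flanking genes between -0.72 and 0.59.

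H19 and Igf2 share a locus and an imprint, with H19, a growth-restraining noncoding RNA, expressed from the maternal copy and Igf2, a growth factor gene, from the paternal one. H19 had 60, 21 and 28 reads in LSPCT replicates 1 to 3, against 8, 6 and 14 reads in LSPC replicates 1 to 3. The groups did not overlap, and LSPCT replicate 1 was the highest. H19 averaged 1.74 ± 1.10 CPM in LSPCT and 0.391 ± 0.133 CPM in LSPC (SD, n = 3 each), and it rose by a log2 fold change of 2.13 (SE 0.56, edgeR adjusted p = 0.0359). The call was not stable: without LSPCT replicate 1 the log2 fold change was 1.49 (edgeR adjusted p = 0.0574), and without any other library except LSPCT replicate 2 the adjusted p ranged up to 0.127. With limma voom it was 1.95 on the log2 scale (adjusted p = 0.0595). H19 too entered the test through the LSPCT libraries. Its partner Igf2 had 0, 1 and 4 reads in LSPCT and 0, 0 and 1 read in LSPC, a ratio of 5.53 in depth-scaled reads with a 95% counting interval of 0.619 to 262, and no difference was detectable at this depth.

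The receptor and adaptor genes of the same growth axis did not pass. Igf2r, the maternally expressed receptor that clears Igf2 and sorts lysosomal enzymes, had the highest level per kb of the 10 genes in LSPC. It stood at 34.9, 15.4 and 14.4 CPM in LSPCT replicates 1 to 3, against 23.3, 25.2 and 31.2 CPM in LSPC replicates 1 to 3. LSPCT replicate 1 was above all LSPC libraries and the other LSPCT libraries were below all of them, so the groups overlapped (log2 -0.30, 95% interval -1.05 to 0.45, edgeR adjusted p = 0.577). Without LSPCT replicate 1, Igf2r fell by 0.83 on the log2 scale (edgeR adjusted p = 0.00610). The antisense RNA gene Airn overlaps Igf2r, and with no strand setting given its reads may be shared, but Airn had at most 3 reads in a library. Grb10, an adaptor that restrains insulin and Igf receptors, had 22, 3 and 12 reads in LSPCT and 16, 13 and 18 reads in LSPC (log2 -0.19, 95% interval -1.69 to 1.31, edgeR adjusted p = 0.873), and its sign turned to 0.27 without LSPCT replicate 2.

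The remaining members had too few reads to test. Peg3, a paternally expressed zinc finger gene, had 2, 3 and 10 reads in LSPCT and 2, 1 and 0 reads in LSPC, a depth-scaled ratio of 5.53 with a 95% counting interval of 1.57 to 29.8. Plagl1, the gene of a zinc finger factor that in mouse regulates a network of imprinted genes, had no read in LSPCT and 1, 5 and 0 reads in LSPC, so that 5 of its 6 reads came from LSPC replicate 2. Ndn, a paternally expressed necdin gene that restrains growth, had 0, 2 and 3 reads in LSPCT and 2, 4 and 3 reads in LSPC, a ratio of 0.615 with an interval of 0.162 to 2.04. Apart from Peg3 in LSPCT replicate 3, at 0.443 CPM against a limit of 0.133 CPM, these levels lie at or near the limit that a count of 0 allows. The intervals cover counting error only.

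Of the 10 members, 6 passed the filter on low counts, and of the 5 of these that were tested beside Dlk1, only H19 rose and none fell. Over all 12729 genes tested, 8.96% rose and 8.24% fell. The groups did not overlap, with LSPCT higher, for 4 of the 6 and for 18.1% of all genes tested. Nothing is read from that count, since the 4 are Dlk1, chosen for its rise, and Meg3, Rian and H19, which entered the test through the LSPCT libraries. All 6 had their highest LSPCT value in replicate 1, which was the highest LSPCT library for 39.0% of all genes tested. In that library Meg3 was at 1.72, Rian at 2.07 and H19 at 1.73 times the LSPCT mean, beside 1.70 times for the summed macrophage markers. That sum weighs Emr1 most, at 205.5, 141.9 and 147.5 CPM in LSPCT replicates 1 to 3. The macrophage marker C1qa stood at 92.6, 8.03 and 14.3 CPM there. The nearness of 1.70 to the other values thus depends on the summing, and nothing is read from it. The part of macrophages in the levels of Meg3, Rian and H19 was not tested.

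**Figure D3:**
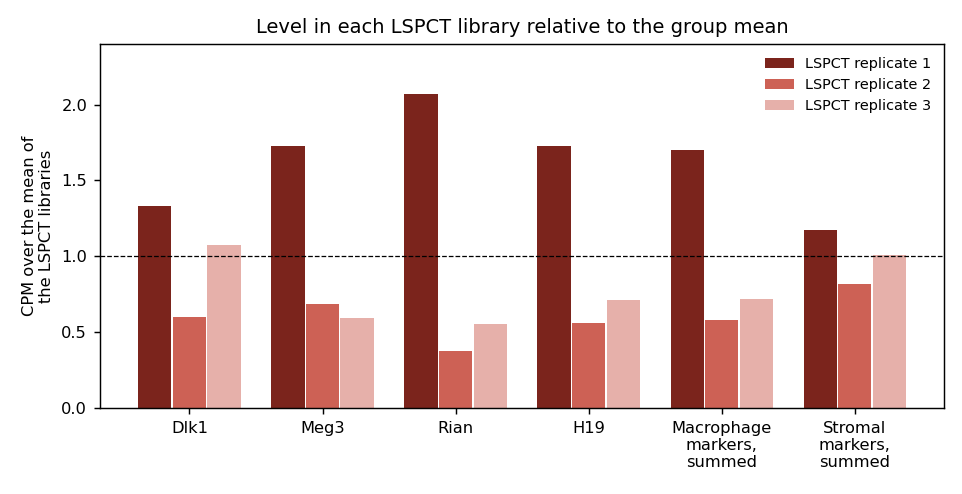
CPM in each LSPCT library divided by the mean of the 3 LSPCT libraries, for Dlk1, Meg3, Rian, H19 and the summed macrophage and stromal markers; the dashed line is the mean. Replicate 1 stands at 1.70 to 2.07 times the mean for Meg3, Rian, H19 and the macrophage markers, and at 1.33 and 1.17 times for Dlk1 and the stromal markers. The sums weigh the highest markers most, Emr1 for macrophages and Pdgfrb for stroma.

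Per kilobase of exon, Dlk1 was the highest of the 10 genes in LSPCT and the third in LSPC. Its level was 39.7 ± 14.7 CPM per kb in LSPCT and 0.149 ± 0.0228 CPM per kb in LSPC (SD, n = 3 each). In LSPCT it was followed by Igf2r at 2.43 ± 1.30 and H19 at 0.760 ± 0.481 CPM per kb, and then by Grb10, Rian and Meg3 at 0.0998 to 0.115 CPM per kb, which did not differ beyond their SDs. In LSPC the order was Igf2r at 2.99 ± 0.468, H19 at 0.171 ± 0.0581, Dlk1 and Grb10 at 0.131 ± 0.0238 CPM per kb, of which the last 3 lay within each other's spread. Among 22709 genes with an exon length, Dlk1 ranked at the 86.2 to 93.9 percentile in LSPCT libraries and at the 45.3 to 47.5 percentile in LSPC libraries. Lengths are unions of GENCODE M21 exons, which may exceed those counted by the authors, so the levels per kb are approximate.

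Of 56 further imprinted genes 55 were listed, 7 of these had no read in any library, and 26 were tested. Of the 26, 3 rose, 2 fell and 21 did not pass, or 19.2% called beside 17.2% of all genes tested, and their median log2 fold change was 0.06 beside 0.00 for all genes tested. The share called in this fit was thus near that of all genes, and no gene of this list approached the difference in Dlk1. Many genes of the list are imprinted in placenta or brain and expressed from both copies elsewhere, so their counts here need not reflect an imprint.

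The 3 that rose were Osbpl5, Sfmbt2 and Impact. Osbpl5, a lipid transfer protein gene at the edge of the Kcnq1ot1 locus, stood at 24.3, 35.7 and 37.6 CPM in LSPCT and 10.4, 13.1 and 9.62 CPM in LSPC (log2 1.56, SE 0.20, edgeR adjusted p = 0.00160). Sfmbt2, a Polycomb-related gene imprinted in mouse placenta, stood at 3.45, 3.53 and 3.14 CPM in LSPCT and 1.09, 1.10 and 1.60 CPM in LSPC (log2 1.41, SE 0.30, edgeR adjusted p = 0.0167). The groups did not overlap for either gene, and LSPCT replicate 1 was the lowest LSPCT library for Osbpl5. Impact, a gene that dampens the amino acid stress kinase GCN2, stood at 29.2, 35.1 and 36.4 CPM in LSPCT and 23.7, 22.9 and 26.4 CPM in LSPC, a log2 fold change of 0.46 (edgeR adjusted p = 0.0320).

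The 2 that fell were Slc22a3 and Peg13. Slc22a3, an organic cation transporter gene beside Igf2r, stood at 10.4, 5.80 and 6.82 CPM in LSPCT and 17.9, 24.4 and 19.9 CPM in LSPC (log2 -1.43, SE 0.24, edgeR adjusted p = 0.00602). Peg13, a noncoding RNA gene within an intron of Trappc9, stood at 15.3, 15.4 and 17.5 CPM in LSPCT and 22.9, 21.6 and 27.4 CPM in LSPC, a log2 fold change of -0.57 (edgeR adjusted p = 0.0245), while Trappc9 differed by 0.23 (edgeR adjusted p = 0.1298). Osbpl5 and Slc22a3 passed in all 12 alternatives, Sfmbt2 in 10, Peg13 in 9 and Impact in 7. Without LSPCT replicate 1, 10 of 28 tested genes of the list passed, 5 in each direction, beside 3249 of all 12966 genes tested. Without LSPC replicate 1, 2 of 27 passed, beside 1029 of 13147. Without LSPC replicate 2 or 3, 3 of 29 passed, beside 1242 of 13060 and 1504 of 13068. The calls over all genes thus moved in the same direction. Without LSPCT replicate 1, however, the share called in the list lay further above that of all genes than with all libraries. The same held with DESeq2, at 9 of 26 beside 2761 of 12729. In the Kcnq1ot1 locus itself, the noncoding RNA gene Kcnq1ot1 (log2 0.42, edgeR adjusted p = 0.0553) and the cell cycle inhibitor gene Cdkn1c (log2 0.90, edgeR adjusted p = 0.281) did not pass, and Cdkn1c overlapped between groups at 6.37 to 20.04 CPM in LSPCT and 3.26 to 11.5 CPM in LSPC.

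**Figure D4:**
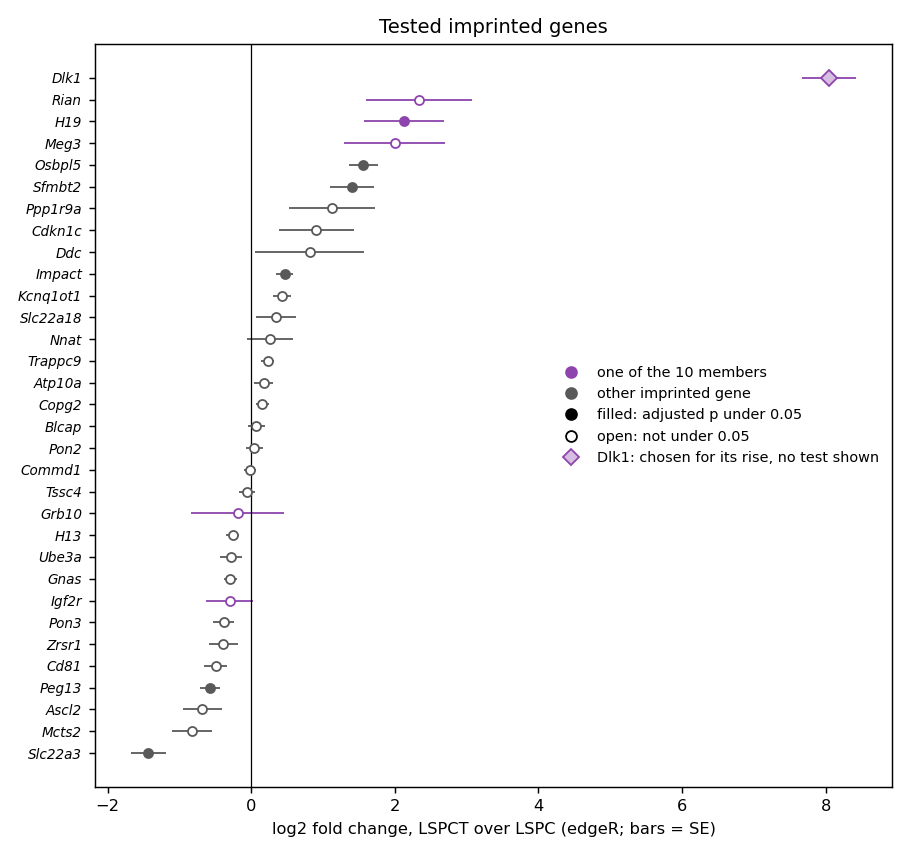
Fitted log2 fold change (LSPCT over LSPC, bars are SE) of the 32 tested imprinted genes, 6 of the 10 members in purple and 26 further genes in grey; filled circles passed an edgeR adjusted p of 0.05, open circles did not, and the diamond is Dlk1, shown without a test. Dlk1 lies at 8.05, the next highest gene, Rian, at 2.34 and the lowest, Slc22a3, at -1.43.

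Of 14 tested genes of DNA methylation and imprint maintenance, Tet1, Tet2 and Tet3 included, 1 rose and 1 fell, or 14.3% called beside 17.2% of all genes. Dnmt3a, a de novo methyltransferase gene, rose and Dnmt3l, its catalytically inactive partner, fell. Dnmt3a stood at 302.3, 430.1 and 407.6 CPM in LSPCT and 117.1, 105.5 and 107.1 CPM in LSPC (log2 1.79, SE 0.14, edgeR adjusted p = 0.000141). Dnmt3l stood at 6.95, 7.34 and 6.20 CPM in LSPCT and 17.3, 16.9 and 16.9 CPM in LSPC (log2 -1.32, SE 0.15, edgeR adjusted p = 0.000997). Among the 3 LSPCT libraries, Dnmt3a was lowest in replicate 1 and Dlk1 highest there. Nothing is read from this, and a link between the levels of these genes was not tested. Dnmt1, Uhrf1, Trim28 and Ctcf, which maintain or read imprints, did not pass.

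Dlk1 has been placed in the Notch pathway, as a ligand-like protein that lacks the domain of canonical ligands and is shed by the protease Adam17. Of 25 tested Notch pathway genes 1 rose and 4 fell, or 20% called beside 17.2% of all genes. Adam17 itself was the one that rose, at 133.1, 132.7 and 147.1 CPM in LSPCT and 103.6, 104.4 and 108.3 CPM in LSPC (log2 0.38, SE 0.08, edgeR adjusted p = 0.0166). The receptor gene Notch1 (log2 -0.41), the protease gene Adam10 (-0.50), the ubiquitin ligase gene Dtx4 (-0.75) and the glycosyltransferase gene Rfng (-0.49) fell (edgeR adjusted p 0.0125 to 0.0374). Dlk2, the close relative of Dlk1, had 12, 14 and 4 reads in LSPCT and 1, 7 and 14 reads in LSPC, which overlapped (log2 0.65, edgeR adjusted p = 0.620). The list's count of 5 calls was 0 without LSPC replicate 1, 2 without LSPC replicate 2 and 3 without LSPC replicate 3, each among 26 tested. Over all genes tested, 1029, 1242 and 1504 then passed, against 2189 with all libraries. The receptor gene Notch3 (log2 1.25, edgeR adjusted p = 0.0569) and Hes1 (log2 1.07, edgeR adjusted p = 0.0630) were higher in LSPCT but did not pass. Both passed with DESeq2 (adjusted p = 0.00895 and 0.0208), with which 3 genes of the list rose and 4 fell, beside 2761 of all genes called. Without LSPCT replicate 1, 2 rose and 5 fell, beside 3249 of all genes called.

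Around Igf2, Igf2r and Grb10, 11 further IGF signalling genes were tested, of which none rose and 3 fell, or 27.3% called beside 17.2% of all genes. Those that fell included Irs2, an insulin receptor substrate gene (log2 -0.78, edgeR adjusted p = 0.0355), and Igf2bp3, the gene of a protein that binds Igf2 mRNA (log2 -0.28, edgeR adjusted p = 0.0452). The list had 1 call without LSPCT replicate 3 or any 1 of the LSPC replicates. Over all genes tested, 1029 to 1504 then passed, against 2189 with all libraries. The ligand gene Igf1 had 208, 19 and 16 reads in LSPCT and 9, 3 and 16 reads in LSPC, and was thus high in LSPCT replicate 1 alone.

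By likeness of log2 CPM over the 6 libraries, the genes closest to Dlk1 among 10870 with a mean log2 CPM of at least 1 were Casp4, Tnfaip3, H2-Oa, Rsph1 and Psme2, with Pearson correlations of 0.997 to 0.999. The 6 points fall in 2 groups, and 38 genes reached at least 0.99, so these values mainly reflect the step between groups. Casp4, an inflammatory caspase gene, averaged 48.4 ± 6.08 CPM in LSPCT and 11.6 ± 0.561 CPM in LSPC, and Tnfaip3, the gene of the NF-kB inhibitor A20, 147.9 ± 17.0 CPM in LSPCT and 19.5 ± 2.31 CPM in LSPC (SD, n = 3 each). By deviation from the group means alone, the closest were Cfdp1, E030024N20Rik, Rpl5, Tnfaip8 and Cetn3, with correlations of 0.995 to 0.998. They are the highest of 10870 genes on 6 points, and Dlk1 had only 15 to 19 reads in LSPC libraries. Values this high can arise from noise alone, so no link to Dlk1 is read from them.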

How the data were processed

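RNA was sequenced from 3 LSPCT and 3 LSPC libraries, grouped by their titles. The authors deposited whole-number counts per gene symbol, not normalized; the build mm9 and the tools TopHat2 2.1.0, featureCounts, FastQC and DESeq2 are named, without role or order, per the submitters' processing notes. The sources used here give no annotation, strand setting or treatment of multi-mapping reads, so overlapping or antisense genes (Igf2r and Airn, Trappc9 and Peg13, Rtl1 and Meg3) may share reads.

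Counts were filtered with filterByExpr (minimum count 10; 12729 of 24015 genes tested), scaled by TMM and fitted with edgeR 4.0.16 in R 4.3.3 (quasi-likelihood F test, group as the only term, two-sided, Benjamini-Hochberg over all genes tested, threshold 0.05). SE was derived from the log2 fold change and F, and intervals are 95%. CPM divides by the TMM-scaled total of tested genes; log2 CPM uses a prior count of 2. The test was tried on simulated counts. Ratios of summed reads carry exact Clopper-Pearson intervals. Libraries of a group differed beyond sampling noise (chi-square per degree of freedom 11.8 to 50.2). Alternatives were RLE factors, no filter, a stricter filter (CPM above 1 in 3 libraries), DESeq2 1.42.0, limma 3.58.1 voom, a replicate block and leaving out each library.

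The members and gene lists were chosen with earlier results of these data known. Named genes are the 10 members, every further listed gene that passed (1 is not reported here), Map3k14, Dnmt3a and the 5 genes most like Dlk1 by either measure. Genes named without having passed, and cell type markers named singly, were chosen after their values were seen. RefSeq gene order and sequences are of GRCm38.p6, not the build of the counts, and promoter starts were matched by symbol.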

Additional observations from a re-analysis of the deposited data

How the results depend on the processing

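Dlk1 kept its direction in all 12 alternatives; Meg3, Rian, H19 and Grb10 had too few counts for the stricter filter. Leaving out 1 library at a time, the log2 fold change ranged from 7.80 to 8.31 for Dlk1, 1.37 to 2.79 for Meg3, 1.25 to 2.74 for Rian, 1.49 to 2.41 for H19, -0.83 to -0.069 for Igf2r and -0.97 to 0.27 for Grb10, which turned positive without LSPCT replicate 2. The adjusted p then ranged from 0.0371 to 0.127 for H19 and from 0.0476 to 0.210 for Rian. Genes called ranged from 1029 (without LSPC replicate 1) to 3249 (without LSPCT replicate 1) among all tested, and 1242 passed without LSPC replicate 2, against 2189 with all libraries. The same range was 2 to 10 of the further imprinted genes, 0 to 1 of the flanking genes, 0 to 7 of the Notch genes and 1 to 3 of the IGF genes. With DESeq2, Rian passed at 2.37. Of 26 further imprinted genes 9 were then called, 4 higher and 5 lower, beside 2761 of all 12729 genes tested. With limma voom, H19 missed the threshold at 1.95. The cause of these changes was not tested. Same-numbered libraries did not deviate together in every pair (correlations of 0.118, -0.115 and 0.106), so the numbers do not pair them; with the replicate block Meg3 passed at 2.07 (edgeR adjusted p = 0.0411), 1 IGF gene was called in place of 3, and 1792 genes passed in all. For members with under about 20 reads a library, depth limits what can be seen.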
